A study of Mus musculus with 30 samples.

Results

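The transcripts of AMP-activated protein kinase (AMPK) and of its upstream kinase LKB1 were measured in C2C12 myotubes. The genes were chosen by name, as the 7 mouse genes for AMPK subunits (Prkaa1, Prkaa2, Prkab1, Prkab2, Prkag1, Prkag2 and Prkag3) and Stk11, which encodes LKB1. They are 8 of the 55487 genes in the count table, and 8 of 8 passed the filter on low counts that left 15907 genes for testing. C2C12 is an immortal line of mouse myoblasts, here labelled WT, whose cells fuse into myotubes once serum is lowered. All 30 libraries came from cells differentiated for 4 days and then kept for a further 4 days under 1 of 5 conditions, 6 libraries each, which the labels do not tie to separate cultures. The conditions were 2% horse serum (2% HS), serum deprivation in low glucose medium without serum (SD), SD with 100 nM metformin (MET), SD with 500 nM leucine (LEU), and SD with both at those doses (MET+LEU). Per the study's methods, differentiation itself took place in low glucose medium with 2% horse serum, and the controls stayed in 2% horse serum.

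AMPK is a sensor of cellular energy made of a catalytic α subunit, a scaffolding β subunit that can bind glycogen, and a γ subunit that binds AMP, ADP and ATP. Each class has several isoforms encoded by separate genes, and skeletal muscle is known for complexes that hold α2, β2 and γ3, with γ3 found mainly in fast glycolytic fibres. LKB1 activates AMPK by phosphorylating the α subunit, and metformin is known to activate AMPK indirectly, while leucine is known for signalling through mTORC1, a kinase complex that AMPK restrains. Transcript counts do not measure the activity of these kinases.

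Total counts per library ran from 12784960 to 19604103, and each count of a member lay between 69 and 3303. Replicate 6 of MET+LEU stood apart, with 5.85% of its counts on nuclear and 7.64% on mitochondrial ribosomal RNA genes, against at most 1.96% and 0.76% in the other 29, and the calls and main values in MET+LEU are also given without it. Mitochondrial ribosomal RNA differed between conditions beyond this library, at 0.219 to 0.306% of counts in 2% HS, 0.281 to 0.367% in SD, 0.244 to 0.705% in MET, 0.501 to 0.71% in LEU and 0.649 to 0.76% in the other 5 libraries of MET+LEU. Its part in the results was not tested. All 8 markers of myotubes were expressed, with a summed level per library between 9300 and 12500 CPM (counts scaled to library size with the trimmed mean of M-values, TMM), and the 3 markers of adipocytes together never passed 0.23 CPM. Adgre1, which marks macrophages, was at 0 in all 30 libraries, where the 4 macrophage markers summed to at most 4.43 CPM, and the 3 endothelial markers together never passed 0.77 CPM. The 4 markers of satellite-like myoblasts summed to between 223 and 317 CPM and the 4 of proliferating cells to between 106 and 202 CPM. In such bulk RNA, fewer cells of a type and less RNA per cell cannot be told apart.

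Divided by the length of each gene's exons, the AMPK genes spanned a wide range of levels. Over the 30 libraries, Prkag3 had the highest mean level, 29.99 CPM per kb, followed by Prkaa1 at 23.9, Prkag1 at 23.3, Stk11 at 21.8, Prkab2 at 12.8, Prkab1 at 11.4, Prkaa2 at 7.46 and Prkag2 at 1.12 CPM per kb. These lengths join all exons of a gene. The longest transcript has 1652 bases against 2175 for Prkag1, 3663 against 4580 for Stk11 and 2089 against 3066 for Prkab1. For Prkaa1 both lengths are 4655 bases. The place of Prkaa1 above Prkag1 and Stk11, and of Prkab2 above Prkab1, thus depends on the length used, also in 2% HS. In 2% HS, the Prkag3 libraries lay between 42.0 and 45.8 CPM per kb, above every library of the other genes. Prkaa1 followed at 23.5 to 25.95 CPM per kb, and Prkag1 and Stk11, at 19.4 to 23.2 and 19.2 to 21.5, overlapped almost wholly and cannot be ordered. In SD the lead of Prkag3 was smaller, since its range of 24.7 to 31.1 CPM per kb overlapped those of Prkag1, 22.9 to 27.2, and Prkaa1, 22.3 to 25.6. In MET the means of Prkag1 and Prkag3, 24.6 and 24.4 CPM per kb, stood in the opposite order and their ranges overlapped. Prkag2 was the lowest of the 8 in each of the 5 conditions, and its level of 1.12 CPM per kb exceeded that of 22.2% of the genes tested.

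With serum deprivation, all 3 genes of the γ class changed, together with 1 α gene. Prkag3, Prkag1 and Prkag2 encode γ3, γ1 and γ2. In SD vs. 2% HS, 4 of the 8 transcripts passed an adjusted p of 0.05, namely Prkag1 and Prkag2 upward and Prkaa2 and Prkag3 downward. The same test called 27.8% of all genes, 13.9% in each direction.

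**Figure D1:**
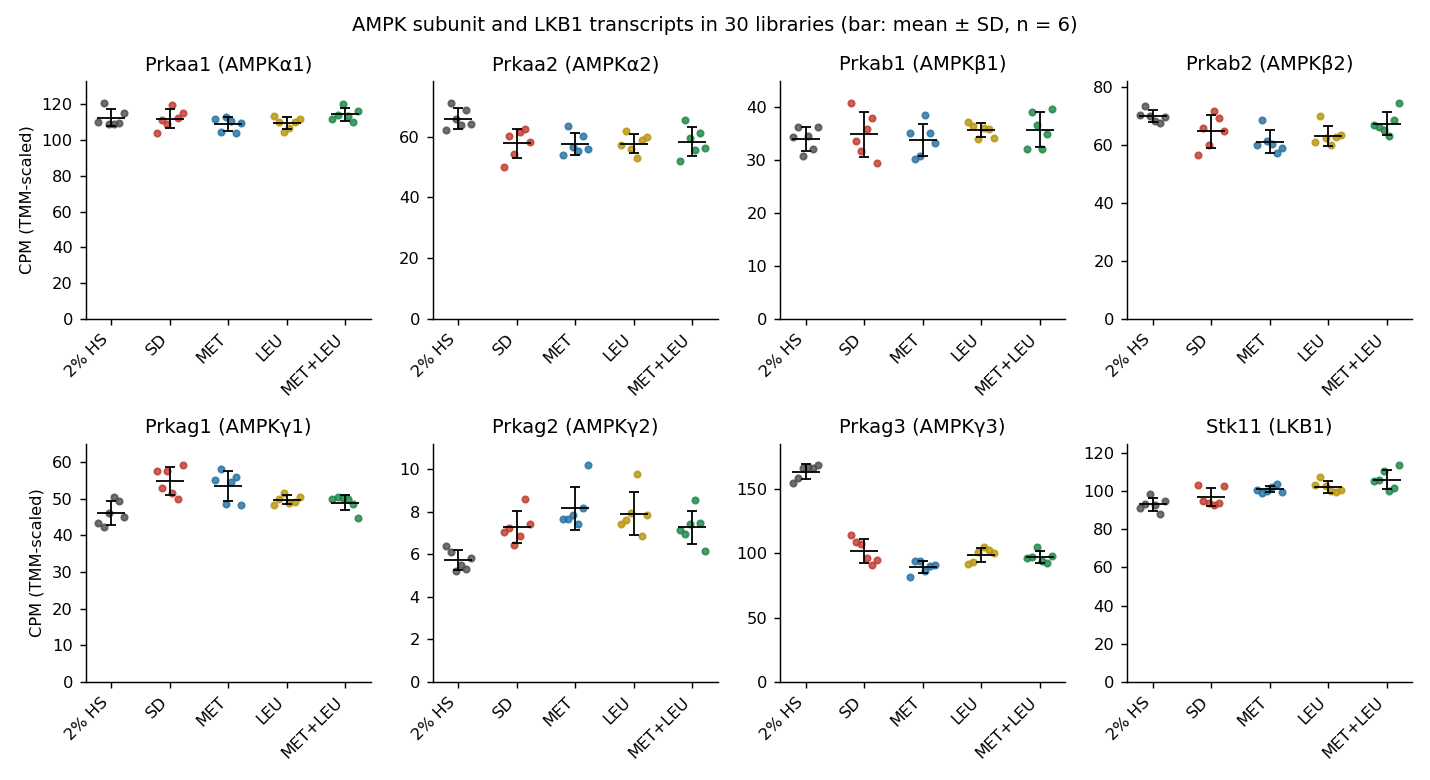
Level of each of the 8 transcripts in every library, in TMM-scaled CPM on a linear axis from 0, for the 5 conditions (points, single libraries; bars, mean ± SD, n = 6). The 6 libraries of 2% HS lie between 155 and 169 CPM for Prkag3, above the 24 serum-deprived libraries, which lie between 81.8 and 115 CPM.

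Prkag3 (ENSMUSG00000006542) lies on the minus strand of chromosome 1, between bases 74738922 and 74749221 of GRCm38. In 2% HS its level ran from 155 to 169 CPM with a median of 167, and in SD it ran from 91.1 to 115 CPM with a median of 102. All 6 SD libraries were below all 6 libraries of 2% HS, as was the case for 7.42% of the genes tested. The group means were 164 ± 5.59 and 102 ± 9.36 CPM (SD, n = 6), and the log2 fold change was −0.68 ± 0.046 (SE, adjusted p = 6.11e-17, edgeR quasi-likelihood test). This is a fall of 37.5%, and the estimate lay between −0.72 and −0.65 when any 1 of the 30 libraries was left out.

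Prkag3 remained low in each serum-deprived condition. Its libraries ran from 81.8 to 94.4 CPM in MET (median 90.8), from 91.6 to 105 in LEU (median 100.7) and from 92.4 to 105 in MET+LEU (median 97.1). None of these 18 libraries reached the lowest library of 2% HS, a separation found in MET, LEU and MET+LEU for 10.5%, 9.53% and 9.51% of all genes.

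Prkag3 was the only member whose promoter window held CAGCTG, a form of the E-box, the site bound by MyoD and other myogenic factors. The windows were those of RefSeq on GRCm38.p6, from 250 bases before to 50 after each annotated start. The 6-letter sequence was searched on both strands, where it reads the same, and was absent from the other 9 windows of these genes, which is why it is shown. It ends 34 bases before the RefSeq start and is in capitals here, read on the minus strand at chr1:74748978-74749007, a stretch that GENCODE M21 counts as part of a longer first exon.

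Prkag3, around CAGCTG: gcagtgcgggaaCAGCTGcgggttaagcgc

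The same letters were present in 16.3% of 32817 windows, so a match is a common feature and a description of the sequence only. CG pairs in the Prkag3 window came to 0.521 of the number that its base composition predicts, against 0.666 in Prkab2 to 1.17 in Stk11 among the other genes with a single window. In the windows of Prkag2 the values were 0.962, 0.316 and 0.717, so Prkag3 did not have the lowest.

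Prkag1 (ENSMUSG00000067713), which encodes the broadly expressed γ1, lies on the minus strand of chromosome 15, between bases 98812797 and 98831521. Its level ran from 42.3 to 50.5 CPM in 2% HS (median 45.5) and from 49.8 to 59.1 CPM in SD (median 55.3). The groups overlapped, with 5 of 6 SD libraries above every library of 2% HS. Its mean level was 46.1 ± 3.25 CPM in 2% HS and 54.8 ± 3.85 CPM in SD, and the rise was 0.25 ± 0.050 on the log2 scale (SE, edgeR adjusted p = 0.000133).

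Prkag2 (ENSMUSG00000028944) encodes γ2, known for variants that cause glycogen storage in heart muscle, and lies on the minus strand of chromosome 5 between bases 24862744 and 25100642. It was the scarcest transcript, at 5.19 to 6.39 CPM in 2% HS (median 5.66) and 6.46 to 8.62 CPM in SD (median 7.15). All 6 SD libraries were above all 6 of 2% HS, as for 6.17% of genes. Its log2 fold change was 0.34 ± 0.104 (SE, edgeR adjusted p = 0.00964), estimated from 69 to 129 counts per library.

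The annotation places antisense genes over parts of some of these genes, and how the authors counted strand is not given in the sources used here. B130046B21Rik shares 950 exonic bases with Prkag1, and Prkag2os2 shares 795 with Prkag2, but their highest counts in any library were 1 and 4. Cbarp shares 232 exonic bases with Stk11 and averaged 9.95 CPM, against 99.8 CPM for Stk11.

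Taken per length, the makeup of the γ class differed between 2% HS and the serum-deprived conditions. Prkag3 made up 66.9 ± 1.10% of γ transcripts in 2% HS and 51.3 ± 2.12% in SD (SD, n = 6), and the 6 libraries of each group did not overlap. Prkag1 made up 31.8 ± 1.18% in 2% HS and 46.6 ± 2.03% in SD, and Prkag2 1.33 ± 0.160% and 2.09 ± 0.335%. The mean shares of Prkag3 in MET, LEU and MET+LEU were 48.6 ± 2.51%, 52.7 ± 1.296% and 52.8 ± 1.57%, within the range of 47.7 to 53.8% in SD. Single libraries went beyond that range in each, down to 45.55% in MET and up to 54.4% in LEU. In MET+LEU they reached 55.3%, in replicate 6. The summed γ level was 66.6 ± 2.68 CPM per kb in 2% HS and 54.1 ± 3.63 in SD. The summed α level was 32.4 ± 1.32 and 31.3 ± 1.67 CPM per kb, and the summed β level 24.8 ± 0.991 and 24.1 ± 1.66 CPM per kb. These shares are a description without a test, and they assume that each gene's exons are covered alike.

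**Figure D2:**
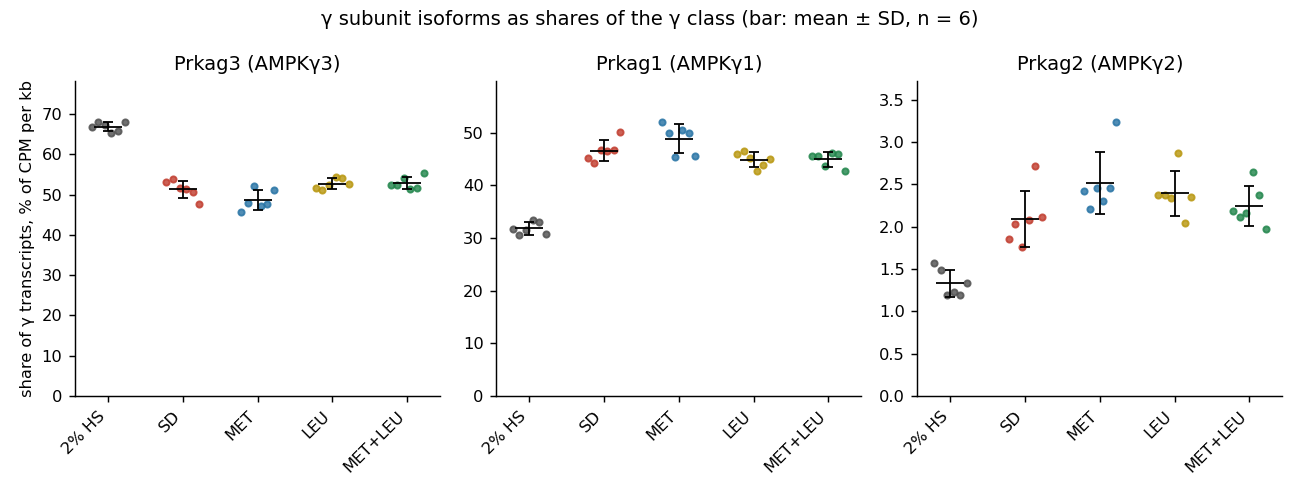
Share of each γ isoform in the summed γ level of a library, in percent of CPM per kb, on linear axes from 0 that differ in scale (points, single libraries; bars, mean ± SD, n = 6). Prkag3 is at 66.9% in 2% HS and between 48.6% and 52.8% on average in the 4 serum-deprived conditions, while Prkag1 is at 31.8% and between 44.9% and 48.9%.

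Of the catalytic subunits, Prkaa2 fell with serum deprivation and Prkaa1 did not pass the test. Prkaa2 (ENSMUSG00000028518) encodes α2 and lies on the minus strand of chromosome 4, between bases 105029874 and 105109890. Its level ran from 62.2 to 71.1 CPM in 2% HS (median 64.8) and from 49.9 to 62.4 CPM in SD (median 59.2). The highest SD library exceeded only the lowest library of 2% HS. The log2 fold change was −0.19 ± 0.053 (SE, edgeR adjusted p = 0.00471), a fall of 12.4%. With an offset for the GC content of genes, it was −0.135 and missed the threshold, with an adjusted p of 0.0531.

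Prkaa2 levels in the other serum-deprived conditions were close to those in SD. They ran from 53.9 to 63.5 CPM in MET, from 52.8 to 61.7 CPM in LEU and from 51.9 to 65.5 CPM in MET+LEU, with means between 57.5 and 58.3 CPM.

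Prkaa1 (ENSMUSG00000050697) encodes α1, the isoform found in most tissues, and lies on the plus strand of chromosome 15, between bases 5143861 and 5181899. It was the steadiest of the 8, at 109 to 121 CPM in 2% HS and 103.9 to 119 CPM in SD. The 95% interval of its log2 fold change in SD vs. 2% HS ran from −0.08 to 0.07. Per length, α1 made up most of the α class, and the share of Prkaa2 was 25.5 ± 0.807% in 2% HS and 23.2 ± 0.944% in SD (SD, n = 6).

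The upstream bases of Prkaa2 and Prkag1 are shown because these genes changed in opposite directions and their windows differ in composition. Both are read on the minus strand, at chr4:105109899-105110148 and chr15:98831522-98831758, and end before any annotated start of the gene. The general E-box letters CANNTG, searched on both strands, are in capitals and include CAGCTG as a form.

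Prkaa2: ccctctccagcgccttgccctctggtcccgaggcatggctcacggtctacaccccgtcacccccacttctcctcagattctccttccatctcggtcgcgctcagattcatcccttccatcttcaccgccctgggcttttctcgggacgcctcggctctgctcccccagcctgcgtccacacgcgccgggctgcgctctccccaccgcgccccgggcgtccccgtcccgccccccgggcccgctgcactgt

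Prkag1: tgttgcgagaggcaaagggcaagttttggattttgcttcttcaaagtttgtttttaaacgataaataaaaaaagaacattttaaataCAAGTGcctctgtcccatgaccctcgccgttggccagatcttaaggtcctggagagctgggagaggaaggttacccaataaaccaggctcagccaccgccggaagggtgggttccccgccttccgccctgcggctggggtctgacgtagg

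The Prkaa2 window was 72.7% G and C and held no CANNTG, whereas the Prkag1 window was 54.7% G and C and held 1, and 72.3% of all windows held at least 1. Prkag3, which fell like Prkaa2, had a window of 54.0% G and C, so the 2 transcripts that fell did not share this composition.

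The β subunits showed smaller differences. Prkab2 (ENSMUSG00000038205), which encodes the muscle isoform β2, lies on the plus strand of chromosome 3 between bases 97658193 and 97673812. It ran from 67.6 to 73.6 CPM in 2% HS (median 69.7) and from 56.4 to 71.7 CPM in SD (median 65.3), and the groups overlapped. Its log2 fold change of −0.11 ± 0.050 (SE) missed the threshold, with an edgeR adjusted p of 0.0831, and 0.0487 without the MET+LEU library that stood apart. In MET it ran from 57.3 to 68.8 CPM and in LEU from 60.0 to 69.8 CPM, and it was below 2% HS by log2 fold changes of −0.19 (edgeR adjusted p = 0.00184) and −0.14 (adjusted p = 0.0238). The call in LEU was lost without replicate 2 of 2% HS or replicate 1 or 4 of LEU (adjusted p = 0.0589, 0.0536 and 0.0609). In MET+LEU it ran from 63.0 to 74.6 CPM, and MET+LEU vs. 2% HS was not past the threshold (log2 fold change −0.05, adjusted p = 0.4, and −0.093 and 0.125 without replicate 6).

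Prkab1 (ENSMUSG00000029513) encodes β1 and lies on the minus strand of chromosome 5, between bases 116013586 and 116024508. It ran from 29.4 to 40.8 CPM over the 30 libraries and was not called in any of the 11 contrasts. Its group means lay between 33.8 CPM in MET and 35.8 CPM in MET+LEU. Per length, the β class was split nearly evenly, and the share of Prkab2 was 55.3 ± 1.45% in 2% HS and 52.8 ± 3.94% in SD, or 46.2% and 43.7% when levels were divided by the longest transcript.

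Stk11 (ENSMUSG00000003068), which encodes LKB1, lies on the plus strand of chromosome 10 between bases 80115803 and 80130682. Its level was lowest in 2% HS, at 88.0 to 98.3 CPM (median 92.8). It ran from 92.7 to 103 CPM in SD (median 94.4), from 99.2 to 103 in MET (median 100.3), from 99.4 to 108 in LEU (median 101.5) and from 99.98 to 113 in MET+LEU (median 105). The libraries of SD overlapped those of 2% HS, whereas all those of MET, LEU and MET+LEU were above every library of 2% HS. Of all genes, 9.78%, 9.11% and 11.5% were separated upward in this way in those conditions. The log2 fold change vs. 2% HS was 0.06 ± 0.037 in SD (SE, edgeR adjusted p = 0.263), 0.12 in MET (adjusted p = 0.0122), 0.14 in LEU (adjusted p = 0.00409) and 0.19 in MET+LEU (adjusted p = 5.85e-05). Without replicate 6 of MET+LEU the last was 0.16 (adjusted p = 0.000422).

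The study asked whether low doses of MET and LEU alter the response to SD, alone or together. Stk11 was upregulated and Prkag1 was downregulated in MET+LEU vs. SD, which is 2 of 8 transcripts, where 18.4% of all genes were called, 10.6% upward and 7.80% downward. In MET vs. SD, where 0.157% of all genes were called, and in LEU vs. SD, where 0.553% were, none of the 8 was called by edgeR. At an unadjusted p under 0.05 there was 1 transcript for MET and there were 2 for LEU, and DESeq2 called 1 and 0.

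**Figure D3:**
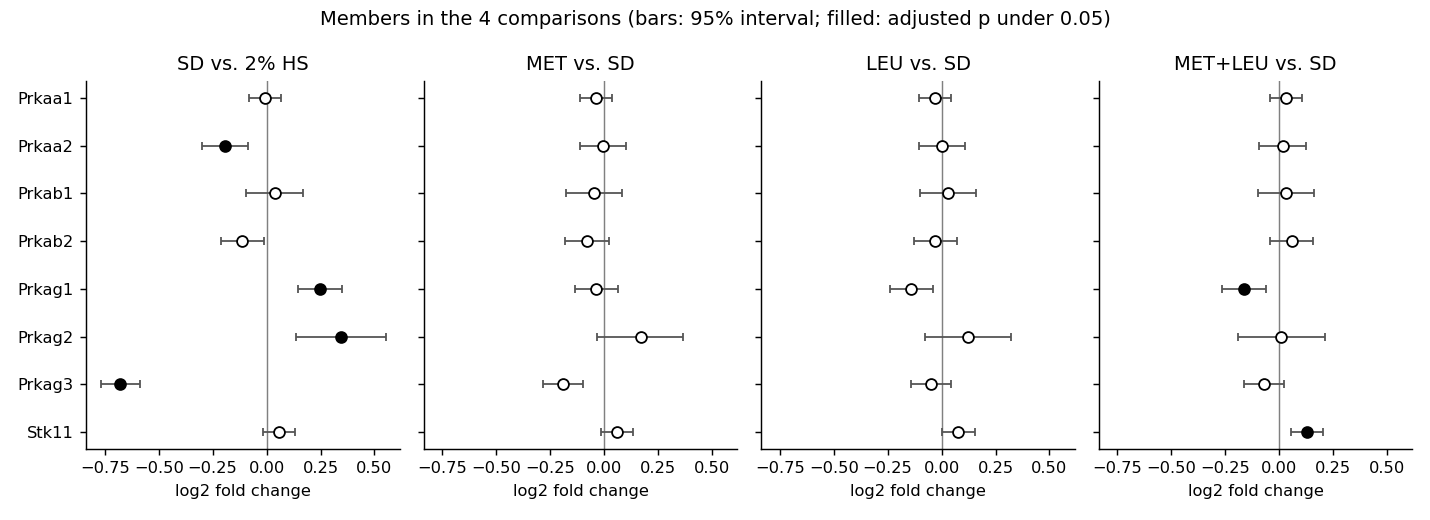
Log2 fold changes of the 8 transcripts for the effect of SD against 2% HS and of MET, LEU and MET+LEU against SD, on a common axis (bars, 95% interval; filled points, adjusted p under 0.05; n = 6 per group). Prkag3 at −0.68 in SD vs. 2% HS lies farthest from 0, and the 2 filled points in MET+LEU vs. SD are Stk11 at 0.13 and Prkag1 at −0.16.

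Stk11 averaged 96.8 ± 4.84 CPM in SD and 106 ± 5.17 CPM in MET+LEU (SD, n = 6), with 4 of 6 MET+LEU libraries above every SD library. The log2 fold change of 0.13 ± 0.037 (SE) had an edgeR adjusted p of 0.0107, and of 0.0489 without replicate 6 of MET+LEU, whose 113 CPM was the highest value. Over the alternative settings the estimate ran from 0.12 to 0.25 and the adjusted p from 3.44e-05 with the GC offset to 0.0683 in a fit of these 2 groups alone.

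Prkag1 averaged 54.8 ± 3.85 CPM in SD and 48.9 ± 2.11 CPM in MET+LEU, where 5 libraries lay between 48.6 and 50.3 CPM and replicate 6 was at 44.8 CPM. All 6 MET+LEU libraries were below the SD mean, and 3 were below every SD library. The log2 fold change was −0.16 ± 0.050 (SE, edgeR adjusted p = 0.019), and −0.14 without replicate 6 (adjusted p = 0.0447). The call was lost with the GC offset (adjusted p = 0.078), with limma-voom (0.0896) and in a fit of these 2 groups alone (0.0697). LEU alone was at a similar level, 48.2 to 51.6 CPM, with a log2 fold change vs. SD of −0.14 that did not pass adjustment (edgeR adjusted p = 0.252).

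Prkag3 was lower in MET than in SD by a log2 fold change of −0.19 ± 0.046 (SE), close to but not past the threshold (edgeR adjusted p = 0.064, unadjusted 0.000155). All 6 MET libraries were below the SD mean, and 3 were below every SD library. The adjusted p ran from 0.0165 with DESeq2 to 0.135 over the alternative settings. It was 0.0163 without replicate 6 of MET+LEU, a library of neither group. In LEU and MET+LEU the log2 fold changes vs. SD were −0.05 (95% interval −0.14 to 0.04) and −0.07 (−0.17 to 0.02), the latter −0.08 without replicate 6.

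The response to the combination was not shown to differ from the sum of the single responses for any of the 8 transcripts. The interaction of MET and LEU was called by edgeR for none of them and for 0.0503% of all genes. Prkag3 and Prkab2 had the smallest unadjusted p, 0.0137 and 0.021, each with an interaction of 0.17 on the log2 scale and adjusted p of 0.426 and 0.457. Without replicate 6 of MET+LEU these interactions were 0.154 and 0.127 (adjusted p = 0.524 and 0.658). MET+LEU vs. MET, in which 8.69% of genes were called, MET+LEU vs. LEU, with 6.28%, and LEU vs. MET, with 0.0754%, also called none of the 8, with 3, 0 and 2 of them at an unadjusted p under 0.05. Those of MET+LEU vs. MET were Prkab2 at 0.14, Prkag3 at 0.12 and Prkag1 at −0.125 (adjusted p = 0.0713, 0.104 and 0.113). Without replicate 6 of MET+LEU they were 0.101, 0.108 and −0.11 (adjusted p = 0.265, 0.182 and 0.22), and none of the 8 was called in these 3 contrasts or in the interaction.

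Against 2% HS, the serum-deprived conditions shared their control libraries, so their values are given side by side. In MET vs. 2% HS 6 of the 8 transcripts were called, against 35.0% of all genes, in LEU vs. 2% HS 5, against 29.7%, and in MET+LEU vs. 2% HS 4, against 42.3%. Prkag3 fell by 0.87, 0.73 and 0.75 on the log2 scale in MET, LEU and MET+LEU. Prkaa2 fell by 0.196, 0.19 and 0.175 on that scale, with edgeR adjusted p between 0.00298 and 0.00641. Prkag2 rose by 0.51, 0.47 and 0.35, and all its MET and LEU libraries and 5 of 6 MET+LEU libraries were above every library of 2% HS. Of all genes, 9.78% in MET and 9.11% in LEU were wholly separated upward from 2% HS. Prkag1 rose in MET (0.21, adjusted p = 0.000801), and was at 0.11 in LEU and 0.09 in MET+LEU without passing the threshold (adjusted p = 0.11 and 0.175). Without replicate 6 of MET+LEU, the log2 fold changes in MET+LEU vs. 2% HS were −0.76 for Prkag3, −0.17 for Prkaa2 and 0.38 for Prkag2.

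Markers of other cells moved in the same comparisons. In SD vs. 2% HS, 3 of 3 fibroblast markers tested rose, of 4 listed, where 13.9% of all genes were called in each direction. Their summed level was 14.2 to 17.9 CPM in 2% HS and 59.3 to 71.7 CPM in SD. Dpt, which encodes dermatopontin, accounted for most of this, at 5.73 and 47.8 CPM. Col6a5 did not pass the filter on low counts. The markers of satellite-like myoblasts summed to 301 to 317 CPM in 2% HS and 231 to 245 CPM in SD. Of these, Pax7 and Vcam1 fell, while Myf5 (−0.116) and Msx1 (0.058) were not called. The myotube markers summed to 10300 to 10900 CPM in 2% HS and 9300 to 10800 CPM in SD, where Ckm and Myh1 fell and Des rose. Myh3 (0.081), Myog (0.051), Tnnt3 (−0.083), Acta1 (−0.105) and Tnnc2 (−0.218) were not called. In MET+LEU vs. SD the 4 markers of proliferating cells fell, from 139 to 202 CPM in SD to 106 to 135 CPM. There, 7.80% of all genes were called downward and 10.6% upward. Of 8 myotube markers 4 rose, and the sums went from 9300 to 10800 CPM to 10500 to 12500 CPM. Des (0.055), Ckm (−0.007), Acta1 (−0.041) and Myog (−0.084) were not called. Among the markers of satellite-like myoblasts, Vcam1 rose (0.146), while Pax7 (0.056), Myf5 (−0.028) and Msx1 (−0.232) were not called. The part of these markers in the results for AMPK subunits and LKB1 was not tested.

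Genes around AMPK were taken from 5 lists by role, and counted against all genes tested, whose median log2 fold change was 0.003 for SD vs. 2% HS and −0.005 for MET+LEU vs. SD. Of 12 partners of LKB1 and other upstream kinases and phosphatases, 6 were called in SD vs. 2% HS, 5 upward and 1 downward, against 27.8% of all genes and 13.9% in each direction, with a median log2 fold change of 0.07. Camkk2 and Camkk1, kinases that activate AMPK in response to calcium, rose by 0.24 (edgeR adjusted p = 0.000395) and 0.64 (adjusted p = 0.000257). Map3k7, which encodes the kinase TAK1, rose by 0.14, and the phosphatase genes Ppm1b and Ppp2ca by 0.11 and 0.09. Stradb, which encodes a pseudokinase that binds LKB1, fell by 0.21, while Strada and Cab39, which complete the LKB1 complex, were each at −0.04 and not called. The calls of Ppm1b and Ppp2ca were lost with a looser filter, with upper-quartile normalization and in a fit of the 2 groups alone, and that of Stradb with the GC offset.

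The transcripts of direct AMPK substrates that were called in SD vs. 2% HS were all lower in SD. Of 19 tested, 9 were called, all downward, against 13.9% of all genes in that direction, and the median log2 fold change was −0.08. Called or not, 12 of the 19 had a negative and 7 a positive log2 fold change. Ppargc1a, which encodes the coactivator PGC-1α of mitochondrial biogenesis, fell from 8.65 ± 0.924 to 3.90 ± 0.194 CPM (SD, n = 6), or by 1.14 on the log2 scale (edgeR adjusted p = 3.14e-10). Gys1, muscle glycogen synthase, fell from 239 ± 3.88 to 163 ± 5.07 CPM, or by 0.55 (adjusted p = 3.52e-17). Its groups did not overlap, as held downward for 7.42% of genes. Tbc1d1 and Tbc1d4, regulators of glucose transporter traffic, fell by 0.45 and 0.78, and Pfkfb3, a regulator of glycolysis, by 0.99. Ulk1, the kinase that starts autophagy, fell by 0.35, Acacb, the acetyl-CoA carboxylase of muscle, by 0.28, Tfeb, a lysosomal transcription factor, by 0.27, and Mff, a mitochondrial fission factor, by 0.12. Mff lost its call with the GC offset (−0.02, adjusted p = 0.888) and with a looser filter (adjusted p = 0.0619). Acaca, which encodes the other acetyl-CoA carboxylase, Tsc2, Rptor, Foxo3, Hdac5 and Srebf1 were among those not called.

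**Figure D4:**
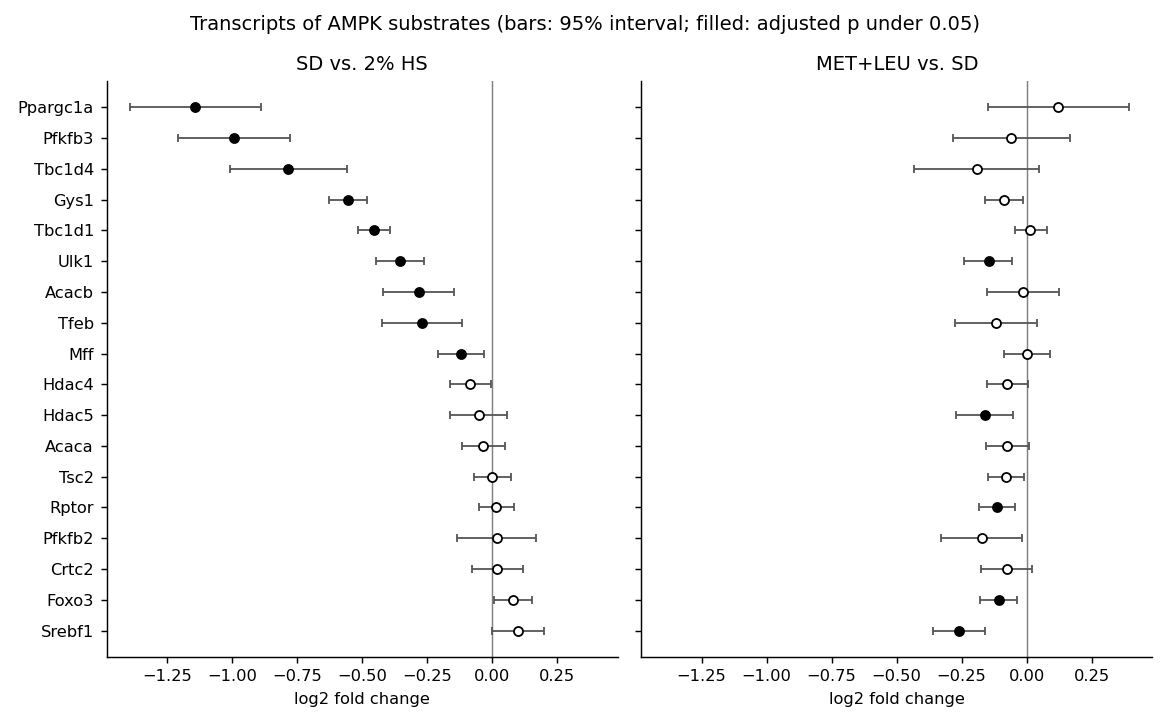
Log2 fold changes of AMPK substrate transcripts (18 of the 19 tested are drawn) for SD against 2% HS (left) and MET+LEU against SD (right), on a common axis, ordered by the first (bars, 95% interval; filled points, adjusted p under 0.05; n = 6 per group). The 9 filled points on the left, from Ppargc1a at −1.14 to Mff at −0.12, and the 5 on the right, from Srebf1 at −0.26 to Foxo3 at −0.11, lie below 0, and only Ulk1 is filled in both.

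Of the 19 substrate transcripts, 5 were called in MET+LEU vs. SD, all downward, where 18.4% of all genes were called and 7.80% downward, and the median was −0.08. Srebf1, a transcription factor of lipid synthesis, fell by 0.26, from 107.6 ± 9.82 to 89.7 ± 5.90 CPM (SD, n = 6, edgeR adjusted p = 0.000176), with no overlap between the groups, as held downward for 1.93% of genes. Rptor, the mTORC1 subunit raptor, fell by 0.11, Ulk1 by 0.15, Foxo3, a transcription factor of muscle breakdown genes, by 0.11, and Hdac5, a class IIa histone deacetylase, by 0.16. Of the 5, only Srebf1 was called with the GC offset or in a fit of the 2 groups alone, and 4 of the 19 were called without replicate 6 of MET+LEU. In MET vs. SD, 1 of the 19 was called, Gys1, which fell by 0.19 (adjusted p = 0.0137), with all 6 MET libraries below all 6 of SD, as held for 0.371% of genes. That call was lost without replicate 2 of SD or replicate 4 of MET (adjusted p = 0.087 at most). In LEU vs. SD none of the 19 was called by edgeR, with 2 at an unadjusted p under 0.05.

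Partners of AMPK and regulators at the lysosome moved in both directions. In SD vs. 2% HS 6 of 14 were called, against 27.8% of all genes. Flcn, Fnip1 and Psenen fell by 0.46, 0.25 and 0.18, and Sesn3, Axin1 and Lamtor2 rose by 0.37, 0.22 and 0.23, and the median was 0.01. Folliculin and its partner FNIP1, encoded by Flcn and Fnip1, bind AMPK, and axin and the Lamtor proteins help bring LKB1 to AMPK on lysosomes. In MET+LEU vs. SD 4 of 14 were called, against 18.4% of all genes, with Fnip1 and Psenen rising by 0.18 and 0.24 and Flcn and Sesn2, a stress-induced sestrin, falling by 0.17 and 0.29. Without replicate 6 of MET+LEU this count was 2.

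Of 12 other kinases that LKB1 activates, 10 were tested. Nuak1 rose by 0.30 (edgeR adjusted p = 7.71e-11) and Nuak2 fell by 0.30 (adjusted p = 0.0263) in SD vs. 2% HS, where 27.8% of all genes were called and the list had a median of 0.04, with 4 called instead of 2 under the GC offset and limma-voom. Sik1 fell by 0.11 and Mark2 by 0.14 in MET+LEU vs. SD. These 2 of 10 stand against 18.4% of all genes, and neither was called with the GC offset (adjusted p = 0.346 and 0.355). Among the upstream kinases and phosphatases, MET+LEU vs. SD called Ppm1b upward (0.12) and Tab1 downward (−0.15), and neither was called without replicate 6 of MET+LEU.

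Of 8 transporter genes listed for metformin transport, 2 passed the filter on low counts. Whether the proteins they encode carry metformin in these cells was not tested. Slc22a5 averaged 14.2 CPM in 2% HS and 12.3 CPM in SD and was not called (edgeR adjusted p = 0.107). Slc22a4 averaged 3.20 and 2.20 CPM and fell by 0.54 on the log2 scale (adjusted p = 0.0281), a call lost with limma-voom (adjusted p = 0.0608) and without replicate 3, 5 or 6 of 2% HS or replicate 2 or 4 of SD (adjusted p up to 0.107). Slc29a4 had 0 counts in all 30 libraries. A 0 in a single library taken alone allows up to 3 counts, and the libraries together allow fewer per library. Slc22a2, Slc22a3, Slc47a1 and Slc47a2 had at most 12 counts.

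The genes most alike to each member were found by the correlation of log2 CPM over the 30 libraries, which share the 5 conditions and their depth. For Prkag3 they were Porcn (r = 0.97), Scn4a (0.96) and Atp2a1 (0.96), the last 2 encoding the sodium channel and the calcium pump of fast muscle fibres. Among the other members, the first was Kansl1l for Prkab2 (0.89), Fkbp10 for Prkag1 (0.81), Tbc1d2b for Prkag2 (0.81), Edf1 for Stk11 (0.86), Dvl3 for Prkab1 (0.70) and Ythdf3 for Prkaa1 (0.68). Among the members, Prkag3 and Prkag2 had r = −0.76 over the 30 libraries but −0.142 with group means subtracted, and Prkaa2 and Prkab2 had r = 0.68 and 0.59.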

How the data were processed

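Raw counts per gene were analysed for 30 RNA-sequencing libraries of C2C12 myotubes, 6 in each of 5 groups taken from the sample labels. Per the labels, total RNA was depleted of ribosomal RNA and sequenced as stranded paired reads. The deposited values are whole-number counts without normalization, and per the labels' processing notes the authors' tools were cutadapt 1.16, STAR 2.7.6a, featureCounts 1.6.3 and DESeq2 1.30.1 on GRCm38. The annotation release, the strand setting and the treatment of multi-mapping reads are not given in the sources used here. Of 55487 identifiers, 55227 matched GENCODE M21 on the same build, which gave symbols, coordinates, lengths and GC content.

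Genes were kept by edgeR 4.0.16 filterByExpr (minimum count 10, minimum total count 15), which left 15907. Libraries were scaled by TMM, and a mean per group was fitted to all 30 with the robust quasi-likelihood model in R 4.3.3. The 11 contrasts were adjusted over all genes tested by the Benjamini-Hochberg method, with a threshold of 0.05, and intervals are at 95%. Standard errors were derived from the log2 fold change and its F statistic. P-values measure the spread between these libraries, which may be technical. With total counts of 12784960 to 19604103 per library, precision was lowest for Prkag2. A count of 0 allows up to 3 counts, which covers counting error only.

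CPM per kb used the union of a gene's exons. Genes alike in pattern were ranked by Pearson correlation of log2 CPM (prior count 2). Promoter windows came from RefSeq, and 8 of 8 genes matched. Named genes were the 8 members, list genes past the threshold in SD vs. 2% HS or MET+LEU vs. SD, and the genes most alike to each member, of which 3 are named for Prkag3 and the first for other members. Results of a few genes are not reported here. The members, lists and tests were chosen with earlier results of these data known. The tests were tested on simulated data. Alternatives were upper-quartile scaling, size factors of DESeq2, a GC offset (spline with 5 degrees of freedom), the DESeq2 1.42.0 Wald test, limma 3.58.1 voom with quality weights, a looser filter (a total count above 5), only the groups compared, a replicate block, exon lengths against the longest transcript, and leaving out each library.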

Additional observations from a re-analysis of the deposited data

Results flagged for a closer look

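In 5 of 40 groups of 6 libraries, the highest or lowest library of a member was separated from the nearest other library by a share of the group's range above Dixon's critical value, which chance does in about 1 group in 20. Prkab2 was at 68.8 CPM in replicate 2 of MET and at 69.8 CPM in replicate 2 of LEU, above the other 5 libraries of each group. Prkag2 was highest in replicate 6 of MET, at 10.2 CPM, and in replicate 4 of LEU, at 9.78 CPM. Prkag1 was lowest in replicate 6 of MET+LEU, at 44.8 CPM, in the library whose share of ribosomal RNA also stood apart.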

How the results depend on the processing

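The number of the 8 transcripts called stayed within 1.5 times in SD, MET, LEU and MET+LEU vs. 2% HS, in LEU vs. SD and in the interaction under every alternative run. In MET vs. SD, 1 instead of 0 was called with the GC offset, with DESeq2 and with the replicate block, each time Prkag3. In MET+LEU vs. SD, 1 instead of 2 was called with the GC offset and with limma-voom, and 0 when only the 2 groups compared were fitted. With the GC offset, 2 were called in MET+LEU vs. MET and 1 in MET+LEU vs. LEU, and with only the groups compared, 1 in LEU vs. MET, where 0 were called otherwise. With 1 library left out, the count ran from 0 to 1 in MET vs. SD and in MET+LEU vs. MET. In MET vs. SD, Prkag3 was called without replicates 4, 5 or 6 of SD, replicate 2 of MET or replicate 6 of MET+LEU (adjusted p = 0.0443, 0.0219, 0.0264, 0.0464 and 0.0163). In MET+LEU vs. MET, Prkab2 was called without replicate 2 of MET (adjusted p = 0.0354) and Prkag1 without replicate 6 of MET (adjusted p = 0.0416).

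Divided by the longest transcript, the share of Prkab2 in the β class was 46.2%, 43.7%, 43.1%, 42.5% and 44.1% in 2% HS, SD, MET, LEU and MET+LEU, and that of Prkag2 in the γ class 1.97%, 3.08%, 3.69%, 3.52% and 3.3%. The order of the groups did not change, and the shares of Prkag3 moved by less than 1 SD.

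Values near 0 that were not called changed sign. Prkaa1 in SD vs. 2% HS was at 0.057 with the GC offset and 0.015 with limma-voom (−0.029 to 0.013 without 1 library), and in MET+LEU vs. SD at −0.025 with the GC offset. Prkaa2 in LEU vs. SD was at −0.017 with the GC offset and −0.02 with limma-voom (−0.037 to 0.027 without 1 library), and in MET+LEU vs. SD at −0.034 and −0.028 (−0.032 to 0.04). Prkaa2 in MET vs. SD was at 0.003 with the looser filter and 0.000 with only the groups compared (−0.043 to 0.021), and Prkag2 in MET+LEU vs. SD at −0.006 with upper-quartile normalization (−0.053 to 0.053). Without 1 library, Prkab1 ran from −0.017 to 0.078 in SD vs. 2% HS, −0.087 to 0.009 in MET vs. SD, −0.011 to 0.084 in LEU vs. SD and −0.019 to 0.077 in MET+LEU vs. SD, and Prkab2 from −0.065 to 0.006 in LEU vs. SD. No called value of a member or of a listed gene changed sign in any fit. Over all genes, the number called went from 25 to 120 with DESeq2 in MET vs. SD, and with only the groups compared from 88 to 197 in LEU vs. SD, from 2931 to 1422 in MET+LEU vs. SD, from 1382 to 589 in MET+LEU vs. MET, from 999 to 311 in MET+LEU vs. LEU, from 12 to 164 in LEU vs. MET and from 8 to 1 in the interaction. With 1 library left out it ran from 4 (without replicate 4 of MET) to 160 in MET vs. SD, from 43 (replicate 4 of LEU) to 269 in LEU vs. SD, from 1 (replicate 1 of LEU) to 44 in LEU vs. MET, from 396 (replicate 3 of LEU) to 1293 in MET+LEU vs. LEU, from 726 to 1558 in MET+LEU vs. MET and from 1 to 11 in the interaction. The counts of 160, 269, 44 and 726, and 457 in MET+LEU vs. LEU, were those without replicate 6 of MET+LEU. Leaving out 1 library also ended the call of Mff, Nuak2, Ppm1b, Ppp2ca, Psenen and Stradb in SD vs. 2% HS (adjusted p up to 0.133) and of Flcn, Fnip1, Foxo3, Hdac5, Ppm1b, Sik1, Tab1 and Ulk1 in MET+LEU vs. SD (up to 0.137), each in at least 1 fit. The cause of these differences was not tested.

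Libraries that shared a replicate number across groups correlated only weakly, by 0.0157 on average over 60 pairs (lowest −0.0913). For libraries of other groups with another number the average was −0.00314. Of the 30 libraries, 11 correlated best with their own number. Whether the numbers pair the libraries was not tested. With the replicate block, members called were 4 in SD vs. 2% HS, 1 in MET vs. SD, 0 in LEU vs. SD and 2 in MET+LEU vs. SD. The number of all genes called is given as a range over the main fit and the alternatives, this one included, apart from leaving out a library. It ran from 4195 to 4790, from 25 to 120, from 78 to 197 and from 1422 to 3191 in these 4 contrasts.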
